A study of Mus musculus with 64 samples.

Results

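The peaks around Sox2 were taken from all 60 peak lists of the series when their summit lay in the gene or within 150 kb on either side. Sox2 (ENSMUSG00000074637.7 in GENCODE) is a gene with 1 exon on the plus strand of mm10, at chr3:34650405-34652461, so the window was chr3:34500405-34802461. It held 2302 of 12175735 deposited peaks, and Sox2 was the only protein-coding gene among the 13 annotated genes that reached into it. ChIP–seq, which sequences the DNA fragments pulled down with an antibody to a chromatin-bound protein, had been performed with antibodies to SOX2, to β-catenin and to 3 TCF/LEF factors, namely LEF1, TCF7L1 (named TCF3 in the labels) and TCF7L2 (named TCF4), with 3 libraries, labelled biological replicates, for each target in each of 4 conditions.

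All cells were mouse embryonic stem cells (ESCs) of the line HM1 (129), or cells differentiated from them, labelled 72h, and fixed first with a protein crosslinker and then with formaldehyde. Naive ESCs were wild-type (WT) cells in 2i medium, which holds the GSK3 inhibitor CHIR99021 and the MEK inhibitor PD0325901. CEpiLCs, a culture model of the caudal epiblast, were WT cells taken through basal medium with FGF and the WNT secretion inhibitor LGK974, to which CHIR99021 was added for the last day. SOX2-ON and SOX2-OFF cells passed through the same differentiation but belonged to a SOX2-TetON line, genotype Sox2-/-, in which the endogenous gene had been disrupted by genome editing and a Sox2 cDNA under a doxycycline-inducible promoter had been placed in the Hprt locus. Doxycycline at 1 μg/ml was kept on SOX2-ON cells and withdrawn from SOX2-OFF cells. Naive ESCs and SOX2-ON cells are the conditions with high SOX2, and CEpiLCs and SOX2-OFF cells those with low SOX2. Naive ESCs and SOX2-ON cells therefore differ in cell line, medium and state together, and both differentiated SOX2-TetON conditions carry the disrupted gene and the transgene, which the WT cells lack. Peak lists hold no transcript levels, so the identity of the cells was not checked against marker genes here.

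Sox2 encodes a SOXB1 transcription factor that holds pluripotent cells in their state and is lowered as the epiblast is turned into primitive streak. SOX2 binds enhancers of its own gene together with OCT4. The proximal ones are known as Sox2 regulatory regions SRR1, upstream, and SRR2, just downstream of the gene, and a distal control region far downstream is needed for Sox2 transcription in mouse ESCs. β-catenin, the effector of canonical WNT signalling, does not bind DNA by itself and is brought to it by the TCF/LEF proteins, among which TCF7L1 is known mainly as a repressor in pluripotent cells and LEF1 and TCF7L2 as partners in activation.

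The lengths of the lists ran from 1628 to 991719 peaks, so a library can hold a peak in the window only because its list is long. The lists of a target were therefore shortened to the same number of top peaks by −log10 p. This left 20000 SOX2 peaks in each library, 3423 β-catenin peaks, 4443 LEF1 peaks, 1628 TCF7L1 peaks and 4134 TCF7L2 peaks. Summits of these equal-length lists were joined within 500 bp over all 60 libraries, which gave 154089 clusters in the genome and 42 in the Sox2 window. Clusters are named below by their distance from the start of Sox2, with plus for downstream. The deposited fold of a peak, its pileup over the local background of its own library, is given beside the equal-length call. It was taken from the full list for the best summit within 250 bp of the cluster and is not scaled between libraries.

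In 15 of the 42 clusters, either an equal-length peak of a target was found in all 3 libraries of a condition or the cluster lay over the coding exon. Of these, 2 lay upstream of Sox2, 1 over its coding exon and 12 downstream. They fell into a proximal set within about 18.1 kb of the gene and a distal set from +94.9 to +114.4 kb, with single clusters at +47.3 kb and at 91.1 kb upstream. All clusters from 91.1 kb upstream to +18.1 kb lay in Sox2ot, a long non-coding RNA gene that spans Sox2 on the same strand, and no annotated gene covered those from +47.3 to +114.4 kb. The remaining 27 clusters were seen in 1 to 7 libraries each.

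**Figure D1:**
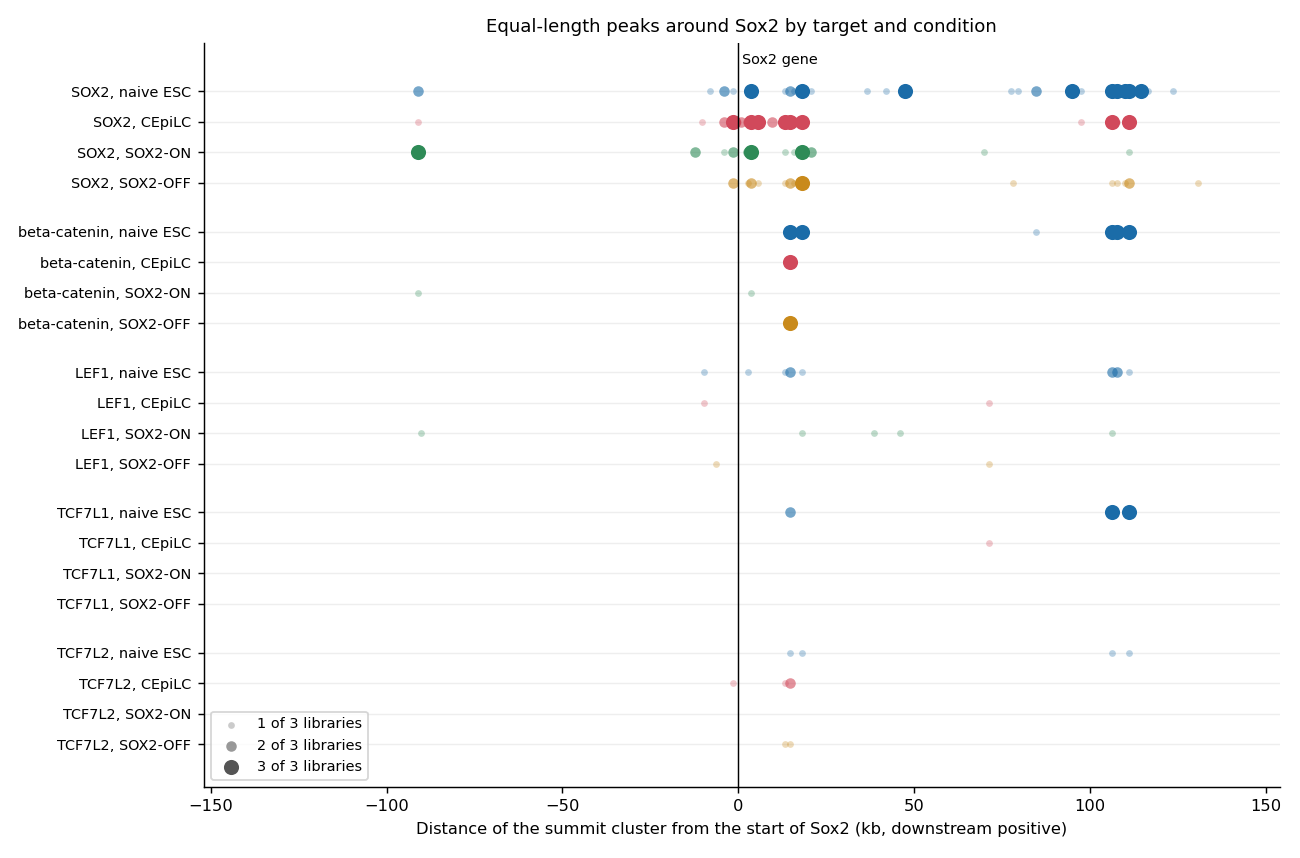
Position of the 42 summit clusters of the Sox2 window (x axis, kb from the start of the gene, downstream positive) for each target and condition (rows). The size and shade of a dot give the number of libraries, from 1 to 3, with an equal-length peak. Dots of 3 libraries lie between +94.9 and +114.4 kb for SOX2, β-catenin and TCF7L1 in naive ESCs, and for SOX2 alone in CEpiLCs.

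The sequences below show the 200 bp around the strongest SOX2 summit of 7 clusters, read from the plus strand of the reference genome (GRCm38.p6, the build that mm10 names). They were chosen among the clusters with differences between conditions that are described further on. Others with such differences, such as those at +47.3, +94.9 and +114.4 kb, are not printed. Capitals mark the SOX cores CATTGT and CTTTGT and the TCF/LEF cores CTTTGAA and CTTTGAT on either strand. The octamer ATGCAAAT was searched for as well.
-91.1 kb, chr3:34559109-34559308: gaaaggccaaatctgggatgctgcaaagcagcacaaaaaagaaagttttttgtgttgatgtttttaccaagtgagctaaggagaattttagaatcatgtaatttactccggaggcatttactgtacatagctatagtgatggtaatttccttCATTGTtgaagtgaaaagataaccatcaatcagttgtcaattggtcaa
+3.6 kb, chr3:34653961-34654160: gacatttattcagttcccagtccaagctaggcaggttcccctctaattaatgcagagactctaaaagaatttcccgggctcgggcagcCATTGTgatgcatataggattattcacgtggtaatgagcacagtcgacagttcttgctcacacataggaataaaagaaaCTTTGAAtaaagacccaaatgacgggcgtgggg
+14.8 kb, chr3:34665282-34665481: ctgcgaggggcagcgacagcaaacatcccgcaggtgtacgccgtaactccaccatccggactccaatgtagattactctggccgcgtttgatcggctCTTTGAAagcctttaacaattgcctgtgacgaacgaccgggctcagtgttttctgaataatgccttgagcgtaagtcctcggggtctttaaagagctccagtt
+18.1 kb, chr3:34668543-34668742: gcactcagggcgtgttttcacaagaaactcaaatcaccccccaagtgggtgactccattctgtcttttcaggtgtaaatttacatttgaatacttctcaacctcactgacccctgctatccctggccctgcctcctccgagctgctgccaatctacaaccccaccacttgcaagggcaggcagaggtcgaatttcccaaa
+106.3 kb, chr3:34756586-34756785: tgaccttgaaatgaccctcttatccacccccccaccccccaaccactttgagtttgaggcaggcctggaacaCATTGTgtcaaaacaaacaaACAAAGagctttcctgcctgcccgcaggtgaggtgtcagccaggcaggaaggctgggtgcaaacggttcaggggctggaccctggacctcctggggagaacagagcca
+107.6 kb, chr3:34757978-34758177: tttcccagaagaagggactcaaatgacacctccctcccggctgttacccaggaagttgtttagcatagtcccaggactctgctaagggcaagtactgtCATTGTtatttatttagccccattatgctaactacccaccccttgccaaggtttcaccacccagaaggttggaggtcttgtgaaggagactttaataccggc
+111.0 kb, chr3:34761394-34761593: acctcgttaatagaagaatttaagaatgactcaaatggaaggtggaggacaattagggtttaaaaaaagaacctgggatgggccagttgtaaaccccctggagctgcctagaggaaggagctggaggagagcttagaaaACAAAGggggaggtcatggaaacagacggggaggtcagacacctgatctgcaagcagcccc

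The window at +3.6 kb, at the position of SRR2, holds CATTGT followed directly by gatgcata, the arrangement of a SOX site next to a POU site, and has a TCF/LEF core at base 168. At +14.8 kb the TCF/LEF core CTTTGAA begins at base 98 and covers the summit, and neither SOX core is present. At +106.3 kb CATTGT and CTTTGT lie 25 and 5 bases to the left of the summit, where CTTTGT is on the minus strand, and at +107.6 kb CATTGT lies 1 base from it. The window at +18.1 kb, where SOX2 peaks were found in every library, holds none of these letters. Over the 15 described clusters, a SOX core was present in 9, a TCF/LEF core in 2 and the octamer in 0. The same letters were found around the strongest SOX2 summit in 54.7%, 15.0% and 4.36% of the 24749 clusters of the genome with a SOX2 peak in at least 3 of 12 libraries, so a match is a description of these windows and no more.

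In the equal-length lists, SOX2 peaks around Sox2 were more numerous in WT cells than in SOX2-TetON cells. Among 20000 peaks per library, the window held 15, 17 and 16 peaks in naive ESCs, 22, 13 and 12 in CEpiLCs, 9, 8 and 7 in SOX2-ON cells and 5, 7 and 8 in SOX2-OFF cells. In this order the means were 16 ± 1, 15.7 ± 5.51, 8 ± 1 and 6.67 ± 1.53 (SD, n = 3). Naive ESC and CEpiLC libraries overlapped, as did SOX2-ON and SOX2-OFF libraries, whereas every CEpiLC library was above every SOX2-ON library, as for 21.5% of the 20908 protein-coding genes tested. Every naive ESC library was above all 6 SOX2-TetON libraries, which held for 5.11% of these genes. By count in the full lists, which differ in length, neither order held. Naive ESC replicate 3 had 49 window peaks among 107016 and SOX2-OFF replicate 2 had 72 among 375980. CEpiLC replicate 1 had 25 among 29298 and SOX2-ON replicate 3 had 44 among 232446. As a share of the full list, every CEpiLC library was still above every SOX2-ON library. The order of naive ESCs did not hold by share, since replicate 1, with 153 among 907862, was below all 6 SOX2-TetON libraries. In naive ESCs 99.4% of protein-coding genes had fewer SOX2 peaks within 150 kb than Sox2, and in SOX2-OFF cells 83.1% had fewer.

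In the equal-length lists, β-catenin and TCF7L1 peaks around Sox2 were more numerous in naive ESCs than in the other 3 conditions. Among 3423 β-catenin peaks, the window held 5, 6 and 5 in naive ESCs, 1 in every library of CEpiLCs and of SOX2-OFF cells, and 1, 1 and 0 in SOX2-ON cells. Every naive ESC library was above the 9 others, as for 9.04% of the 13486 genes tested. By count this was not so in the full β-catenin lists, where naive ESC replicate 3 held 23 window peaks among 76699 and SOX2-ON replicate 3 held 78 among 461476. As a share of the full list it did not hold either. CEpiLC replicate 1, with 19 window peaks among 20453, was above naive ESC replicate 1, with 31 among 49737. Among 1628 TCF7L1 peaks the window held 3, 3 and 2 in naive ESCs, 1, 0 and 0 in CEpiLCs and 0 in the 6 SOX2-TetON libraries, and this separation held for 9.95% of 8677 genes. By count it was not found in the full TCF7L1 lists, where naive ESC replicate 2 had 16 window peaks among 23347 and CEpiLC replicate 2 had 45 among 230001. LEF1 had 1, 6 and 4 of 4443 peaks in naive ESCs, 1, 1 and 0 in CEpiLCs, 2, 1 and 2 in SOX2-ON cells and 1, 1 and 0 in SOX2-OFF cells, so that naive ESC replicate 1 lay among the differentiated libraries. TCF7L2 had 0, 4 and 0 of 4134 peaks in naive ESCs and between 0 and 2 elsewhere, and its conditions overlapped.

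**Figure D2:**
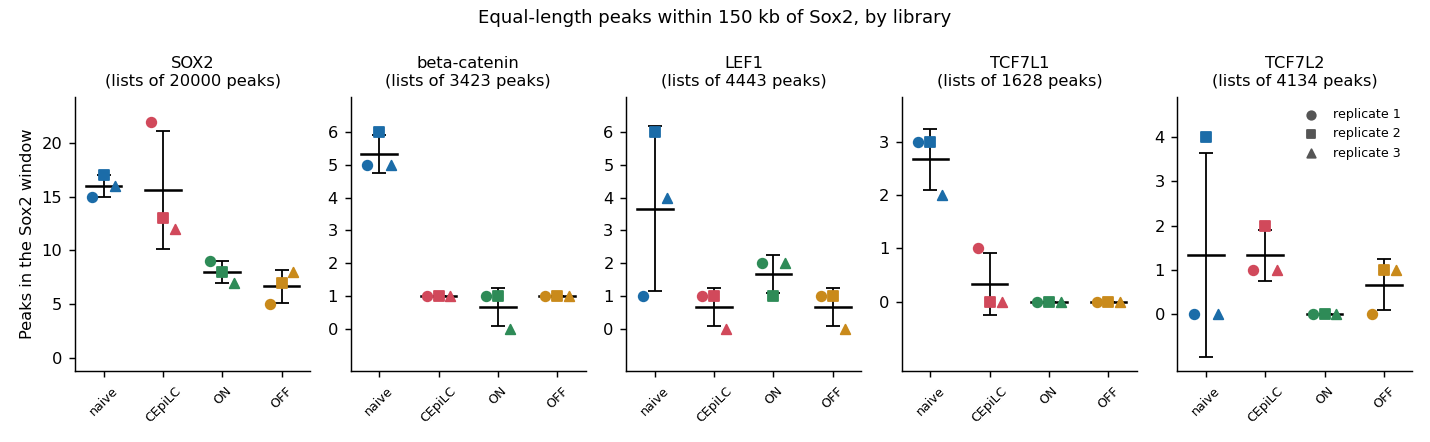
Equal-length peaks within 150 kb of Sox2 (y axis) in each library, by target and condition (x axis, with ON and OFF for SOX2-ON and SOX2-OFF). Symbols are replicates, the horizontal bar is the mean and the whiskers are 1 SD (n = 3). The naive ESC libraries of β-catenin, at 5 to 6, and of TCF7L1, at 2 to 3, lie above all other libraries of the same target.

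Whether these numbers differed between high and low SOX2 conditions was tested by an exact permutation of these labels within each cell line. There were 400 assignments, with Benjamini-Hochberg adjustment over all genes tested. In the WT line this sets naive ESCs against CEpiLCs, which also differ in medium and state. The SOX2 level cannot be told apart from these there. Per 10000 peaks, the mean of high minus low SOX2 conditions was 0.417 with the SOX2 antibody (adjusted p = 0.963, exact permutation). It was 5.84 with β-catenin, from 2.92 to 8.76 (adjusted p = 0.231, exact permutation), and 7.17 with TCF7L1, from 1.02 to 8.19 (adjusted p = 0.266, exact permutation). LEF1 gave 4.5 (adjusted p = 0.58, exact permutation) and TCF7L2 -0.806 (adjusted p = 1, exact permutation). None passed, and of all genes tested 0 passed for any target (0% called), although between 686 and 3415 genes a target had an unadjusted p under 0.05. Sox2 had an unadjusted p under 0.05 for LEF1 alone (p = 0.045, exact permutation). With all deposited peaks in place of equal-length lists the difference turned to -1.32 with the SOX2 antibody, -1.35 with β-catenin and -0.357 with LEF1, and within 50 kb of the gene it was 0.487 with β-catenin and -0.833 with the SOX2 antibody.

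In naive ESCs, 3 distal clusters, at +106.3, +107.6 and +111.0 kb, had high folds of SOX2, β-catenin and TCF7L1 together. The other distal clusters, at +94.9, +109.9 and +114.4 kb, had mean naive SOX2 folds of 12.7, 8.9 and 12.1 and no equal-length β-catenin peak. These folds were lower than the 21.6 at +3.6 kb and the 18.4 at +18.1 kb. An equal-length TCF7L1 peak was absent from them and also from +107.6 kb. At +106.3 kb the β-catenin fold was 47, 27.2 and 44.9 in naive ESCs, and the highest of the 9 other libraries was 9.11, in SOX2-ON replicate 3. At +107.6 kb it was 37.5, 12.1 and 25.8 in naive ESCs and at most 9.23 elsewhere. At +111.0 kb it was 49.2, 39 and 40.9, and at most 12.5 elsewhere. The naive ESC libraries did not overlap with the others at any of these 3 clusters. At +18.1 kb, nearer to the gene, the naive folds of 22.1, 14.5 and 19.6 were also above all others, the highest of which was 8.92. These 4 clusters had equal-length β-catenin peaks in the naive ESC libraries alone and so entered the set of compared clusters through them, which nearly fixes this order. In the genome 20.2% of 5778 clusters were ordered in this way, and 40.9% when naive ESCs are set against CEpiLCs alone, and nothing is read from the members' count. The comparison of folds was chosen after the values had been seen.

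TCF7L1 had higher folds still at 2 of these clusters. At +106.3 kb its fold was 48.8, 37.9 and 88.8 in naive ESCs, and the highest of the others was 13.5, in SOX2-ON replicate 3. At +111.0 kb it was 60.2, 37.5 and 91.4 in naive ESCs against at most 12.9. At both clusters every naive ESC library was above the 9 others, but they too had equal-length TCF7L1 peaks in naive ESCs alone and entered through them. This order held for 29.4% of 2574 clusters in the genome, and for 65.7% against CEpiLCs alone. In CEpiLCs no TCF7L1 library had a peak at +106.3 kb even in its full list, and 1 of 3, with a fold of 5.35, had one at +111.0 kb. The CEpiLC lists of TCF7L1 were of 1628, 230001 and 74815 peaks. Peaks of TCF7L1 were also found in the full lists of all naive ESC libraries at +94.9 kb (8.25, 10.5 and 25.7), at +107.6 kb (24.5, 15.1 and 43.8) and at +18.1 kb (24.9, 17.7 and 37).

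For LEF1 the clusters at +106.3, +107.6, +109.9 and +111.0 kb were seen in naive ESC replicates 2 and 3, that at +114.4 kb in replicate 2 and that at +94.9 kb in none. Replicate 1 had no LEF1 peak at any of them, although its list held 236304 peaks. The LEF1 fold at +106.3 kb was 12.9 and 17.2 in these replicates, and at +107.6 kb it was 7.99 and 12.9. SOX2-ON replicate 3 had a LEF1 fold of 12.1 at +106.3 kb, which lies close to them, in a list of 991719 peaks. Without naive ESC replicate 1, left out after the values had been seen, the LEF1 difference over the whole window was 5.25 peaks per 10000, against 4.5 with it. TCF7L2 reached 12.4 at +106.3 kb and 8.32 at +111.0 kb in naive ESC replicate 2, and the other 2 naive replicates were lower or had no peak.

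SOX2 itself was found at part of the distal set in CEpiLCs as well. At +106.3 kb the SOX2 fold was 17, 24.4 and 25.3 in naive ESCs, 7, 8.61 and 6.09 in CEpiLCs, absent in 2 SOX2-ON libraries and 5.5 in the third, and absent, 5.19 and 7.77 in SOX2-OFF cells. At +111.0 kb it was 23.8, 18 and 22.3 in naive ESCs and 6.88, 10.7 and 8.53 in CEpiLCs, with 8.38 in 1 SOX2-ON library and 5.93, 9.18 and 4.22 in SOX2-OFF cells. At +107.6 kb it was 27.7, 24.1 and 24.9 in naive ESCs, 7.33, 5.47 and 4.8 in CEpiLCs, absent in all SOX2-ON libraries and absent, 9.08 and 5.93 in SOX2-OFF cells. At each of these clusters all naive ESC libraries were above all 9 others, and the CEpiLC and SOX2-OFF libraries overlapped. Over the window this order held at 8 of 18 clusters (12.6% of 24749 in the genome), and 9 of 18 were higher in every naive ESC library than in every CEpiLC library (27.0%). Those at +47.3, +94.9 and +114.4 kb had equal-length SOX2 peaks in naive ESCs alone and entered through them, so these counts describe the window and support nothing. The equal-length SOX2 peak was present in 3 of 3 CEpiLC libraries at +106.3 and +111.0 kb, where that of β-catenin and TCF7L1 was present in 0 of 3. At +109.9 kb, between these clusters, the SOX2 folds were 11.4, 7.42 and 7.89 in naive ESCs and 4.11, 4.86 and 7.48 in CEpiLCs, and the conditions overlapped.

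**Figure D3:**
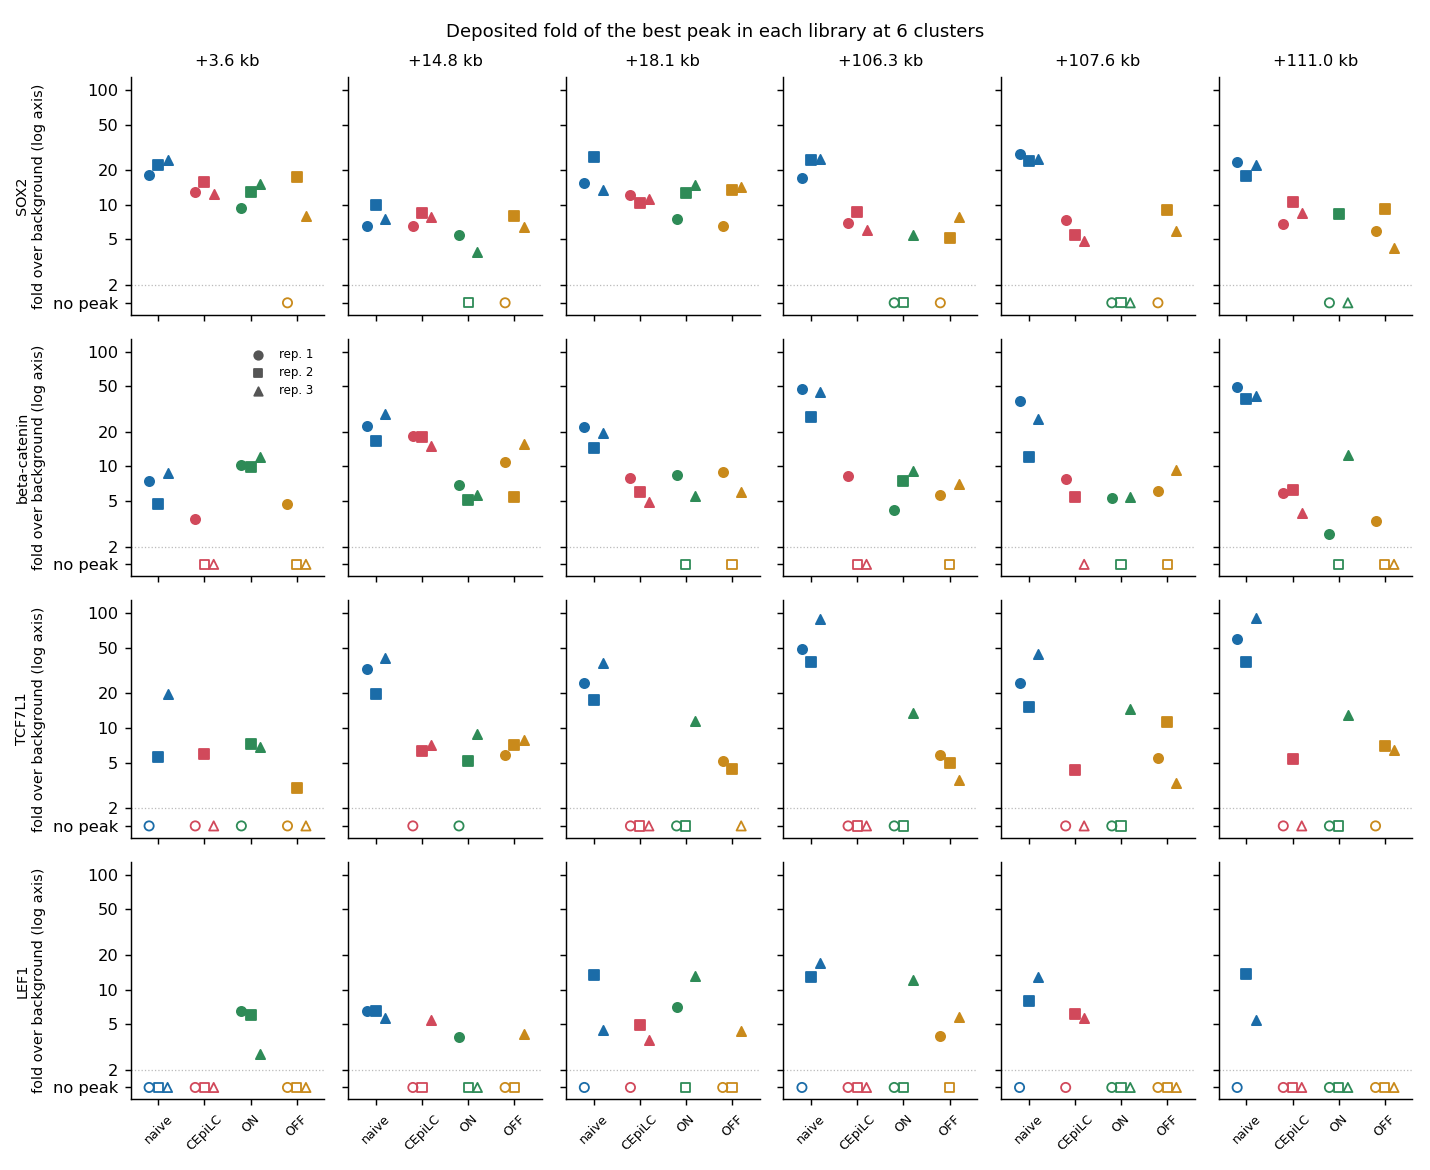
Deposited fold over local background of the best peak in the full list of each library (y axis, log scale) at 6 clusters (columns) for SOX2, β-catenin, TCF7L1 and LEF1 (rows), by condition on the x axis. Symbols are replicates, and open symbols under the dotted line are libraries with no peak. At +106.3 and +111.0 kb the naive ESC libraries of SOX2, β-catenin and TCF7L1 lie above all others.

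Naive ESCs and CEpiLCs, both WT, were compared by counting the clusters with an equal-length peak in 3 of 3 libraries on one side and in 0 of 3 on the other. SOX2 had 3 such clusters for naive ESCs, at +47.3, +94.9 and +114.4 kb, among 32 clusters of the window with a peak, and 3.93% of clusters in the genome met this rule. It had 1 for CEpiLCs, at +5.6 kb, with 3.95% in the genome. The naive folds of SOX2 were 17.2, 5.83 and 9.75 at +47.3 kb, 12.2, 13 and 13 at +94.9 kb and 15.2, 9.75 and 11.4 at +114.4 kb, and none of the 3 CEpiLC libraries had a peak there even in its full list. At +5.6 kb the SOX2 folds were 4.98, 8.65 and 6.21 in CEpiLCs and 7.24, 5.57 and 3.63 in naive ESCs, so the fold did not separate them and only the position in the list did. β-catenin had 4 clusters for naive ESCs, at +18.1, +106.3, +107.6 and +111.0 kb, among 6 with a peak (17.0% in the genome). These rest on the equal-length lists, since the full CEpiLC lists held β-catenin peaks at all 4, in 3, 1, 2 and 3 of 3 libraries, and with absence judged in full lists the count was 0. TCF7L1 had 2, at +106.3 and +111.0 kb, among 4 (16.8%), and 1 by absence in full lists. Neither β-catenin nor TCF7L1 had any for CEpiLCs.

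SOX2-ON cells, although a condition with high SOX2, held few SOX2 peaks at the distal clusters, where the equal-length lists gave 1, at +111.0 kb in replicate 2. An equal-length SOX2 peak was present in 3 of 3 naive ESC libraries and 0 of 3 SOX2-ON libraries at 6 of 29 clusters, namely +47.3, +94.9, +106.3, +107.6, +109.9 and +114.4 kb, while 2.92% of clusters in the genome met this rule and no cluster of the window met its reverse. For β-catenin 5 of 8 clusters met it, at +14.8, +18.1, +106.3, +107.6 and +111.0 kb (10.9% in the genome), and for TCF7L1 2 of 3 did, at +106.3 and +111.0 kb (11.6%). These calls rest on the equal-length lists. The full SOX2-ON lists held β-catenin peaks at these 5 clusters in 3, 2, 3, 2 and 2 of 3 libraries. They held TCF7L1 peaks in 1 of 3 at both clusters, and SOX2 peaks in 1 of 3 at +106.3 kb and 2 of 3 at +109.9 kb. At the other SOX2 clusters no SOX2-ON library had one. The effects of cell line, medium and state cannot be told apart in this comparison, which was added after the values had been seen. CEpiLCs share the differentiation medium apart from doxycycline. They differ from SOX2-ON cells in cell line and SOX2 level together, and these effects cannot be told apart. At 3 of 24 clusters, an equal-length SOX2 peak was present in 3 of 3 CEpiLC libraries and 0 of 3 SOX2-ON libraries. These lay at +5.6, +14.8 and +106.3 kb (3.71% in the genome), and the same held for β-catenin at 1 of 3, at +14.8 kb (10.8%). The full SOX2-ON lists held SOX2 peaks at these clusters in 2, 2 and 1 of 3 libraries, and β-catenin peaks at +14.8 kb in 3 of 3.

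SOX2-ON and SOX2-OFF cells were compared by the same rule, and for SOX2 the share of the window's clusters that met it was no higher than in the genome. For β-catenin the rule was met at +14.8 kb, described below. The 1 cluster that met it for SOX2 lay 91.1 kb upstream of Sox2, in an intron of Sox2ot. The SOX2 fold there was 14.7, 15.2 and 19.5 in SOX2-ON cells, and SOX2-OFF cells had no peak, a fold of 2.99 and no peak. Naive ESCs had 20.4, 9.88 and 5.05, and CEpiLCs had 5.6 and 2 libraries without a peak. This was 1 of 20 clusters (5.00%), against 5.49% in the genome, and 0 with absence judged in full lists, where SOX2-OFF replicate 2 had its peak. By the fold in the full lists, every SOX2-ON library was above every SOX2-OFF library at this cluster and at +20.8 kb, 2 of 18 (11.1%), also below the 29.3% in the genome. LEF1 was listed there at folds of 7.08, 7.33 and 8.25 in SOX2-ON cells, in full lists only, in naive ESC replicate 2 at 6.34 and in none of the CEpiLC or SOX2-OFF libraries. β-catenin had 16.8, 4.33 and 4.56 there in SOX2-ON cells and 8.47 in 1 naive ESC library.

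The cluster at +14.8 kb, which overlaps an exon of Sox2ot, was the one place where β-catenin had an equal-length peak in CEpiLCs. Its β-catenin fold was 22.4, 16.6 and 28.5 in naive ESCs, 18.4, 17.9 and 15 in CEpiLCs, 6.82, 5.13 and 5.62 in SOX2-ON cells and 11, 5.4 and 15.7 in SOX2-OFF cells. An equal-length peak was present in 3 of 3 libraries of naive ESCs, CEpiLCs and SOX2-OFF cells and in 0 of 3 of SOX2-ON cells. The WT conditions overlapped, and SOX2-ON libraries lay below all WT libraries, but SOX2-OFF replicate 2, whose whole list held 3423 peaks, lay among the SOX2-ON values. In the contrast of SOX2-OFF against SOX2-ON this was 1 of 3 clusters of the window with a β-catenin peak, and 4.69% of clusters in the genome met the rule. The SOX2 fold at the same cluster was 5.42, absent and 3.86 in SOX2-ON cells and 6.49, 8.48 and 7.8 in CEpiLCs. TCF7L1 reached 32.8, 19.9 and 40.8 there in naive ESCs, with 8.82 as the highest value elsewhere.

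Near the gene, SOX2 peaks were found in most conditions. At +18.1 kb an equal-length SOX2 peak was present in all 12 libraries, the only such cluster of the window. Its folds were 15.5, 26.1 and 13.6 in naive ESCs, 12.3, 10.4 and 11.3 in CEpiLCs, 7.57, 12.6 and 14.8 in SOX2-ON cells and 6.61, 13.5 and 14.3 in SOX2-OFF cells. The naive ESC libraries were above the CEpiLC ones and overlapped with both SOX2-TetON conditions, and the SOX2-OFF libraries held SOX2 peaks after withdrawal of doxycycline. At +3.6 kb, at the position of SRR2, the SOX2 fold was 18.3, 22.2 and 24.4 in naive ESCs, above all others, 12.9, 15.8 and 12.4 in CEpiLCs, 9.35, 13 and 15.2 in SOX2-ON cells, and absent, 17.6 and 8 in SOX2-OFF cells. β-catenin was listed at +3.6 kb with 10.2, 9.85 and 12.1 in SOX2-ON cells and 7.46, 4.73 and 8.74 in naive ESCs, and was listed in 1 of 3 CEpiLC and 1 of 3 SOX2-OFF libraries. Among these β-catenin peaks only that of SOX2-ON replicate 2 was an equal-length peak.

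The clusters at 1.6 kb upstream and at +13.2 kb had summits spread over a wider stretch than the others, and lower SOX2 folds than those at +3.6 and +18.1 kb. The mean SOX2 fold at 1.6 kb upstream was 5.1 ± 0.843 in naive ESCs, 6.47 ± 0.256 in CEpiLCs, 9.19 ± 2.26 in SOX2-ON cells and 5.96 ± 1.98 in SOX2-OFF cells (SD, n = 3). At +13.2 kb it was 7.36 ± 3.16 in naive ESCs, 8.83 ± 2.96 in CEpiLCs and 6.2 ± 2.77 in SOX2-OFF cells (SD, n = 3). At +13.2 kb these conditions overlapped. At 1.6 kb upstream the CEpiLC libraries, from 6.29 to 6.76, were above the naive ones, from 4.13 to 5.59, as at 13.3% of clusters in the genome. The SOX2-OFF libraries, from 3.9 to 7.86, spanned both. The SOX2-ON libraries, from 7.13 to 11.6, were above both WT conditions and overlapped with SOX2-OFF. The share of clusters in the genome with that order was not computed. A cluster at 4.0 kb upstream, on the side of SRR1, had an equal-length SOX2 peak in 2 of 3 libraries of naive ESCs and of CEpiLCs, 1 of 3 of SOX2-ON cells and 0 of 3 of SOX2-OFF cells. Over the promoter, the cluster at 0.2 kb upstream held an equal-length peak in 1 library.

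No cluster of the window passed the test of high against low SOX2 taken over both cell lines. The standing of the best peak in its equal-length list, from 0 with no peak to 1 at the top, was tested with the same exact permutation and adjusted over all clusters of the genome. For SOX2, 0 of 18 clusters passed (0% in the genome) and 1, at 91.1 kb upstream, had an unadjusted p under 0.05. Its standing was 0.621 higher with high SOX2 (p = 0.02, exact permutation, adjusted p = 0.13). For β-catenin 0 of 5 passed, against 15.3% of 5778 clusters, for TCF7L1 0 of 2, against 10.1% of 2574, and for LEF1 and TCF7L2 0 of 1 each, against 0%. For these targets no cluster of the window had an unadjusted p under 0.05, and the distal β-catenin and TCF7L1 clusters, with equal-length peaks in naive ESCs alone, stood at p = 0.1, the lowest value that such a pattern can reach in the exact permutation test. The difference between the cell lines in the contrast of high against low SOX2 conditions was also tested. It was largest for SOX2 at +107.6 kb, where it was 0.978 (p = 0.05, exact permutation, adjusted p = 0.288).

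Peaks over the coding exon were set apart, since reads from the endogenous gene and from the cDNA in the Hprt locus cannot be told apart there. The endogenous gene was cut near its start codon. The 17 bases that both guide oligonucleotides share beyond their cloning overhangs were found once in the coding sequence, at chr3:34650451-34650467, coding bases 36 to 52, and are printed with the adjacent PAM in capitals.
Sox2 guide site: gggcccgcagcaagcttCGG
The cDNA carries G54A, counted from 1 at the start codon with the reference base first, which lies in this PAM. The coding sequence runs from 34650416 to 34651375 and is 960 bases long. Its summits numbered 23, from 18 of the 60 libraries, with folds between 2.93 and 8.94. Of the 30 SOX2-TetON libraries 10 had such a peak, and of the 30 WT libraries 8. By condition these were 2 libraries of naive ESCs, 6 of CEpiLCs, 7 of SOX2-ON cells and 3 of SOX2-OFF cells, of 15 each.

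The SOX2 antibody gave coding-exon folds of 4.57, 3.97 and 5.67 in SOX2-ON cells, 2.99 in 1 SOX2-OFF library, 4.42 and 5.88 in 2 CEpiLC libraries and 8.94 in 1 naive ESC library. Only the 2 CEpiLC peaks were within the equal-length lists, and they formed the cluster at +0.9 kb, near the 3′ end of the coding sequence. The log2 fold of the strongest peak, set to 0 where there was none, differed between SOX2-TetON and WT libraries by 0.07 with the SOX2 antibody, -0.04 with β-catenin, 0.36 with LEF1, -0.31 with TCF7L1 and 0.44 with TCF7L2 (n = 6 in each line, exact permutation test, adjusted p = 1 for each). The SDs within a line were up to 1.47, a spread that includes the libraries set to 0. The size of difference that could be detected was not computed. Over the guide site itself lay 1 of the 23 peaks, from naive ESC SOX2 replicate 1.

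**Figure D4:**
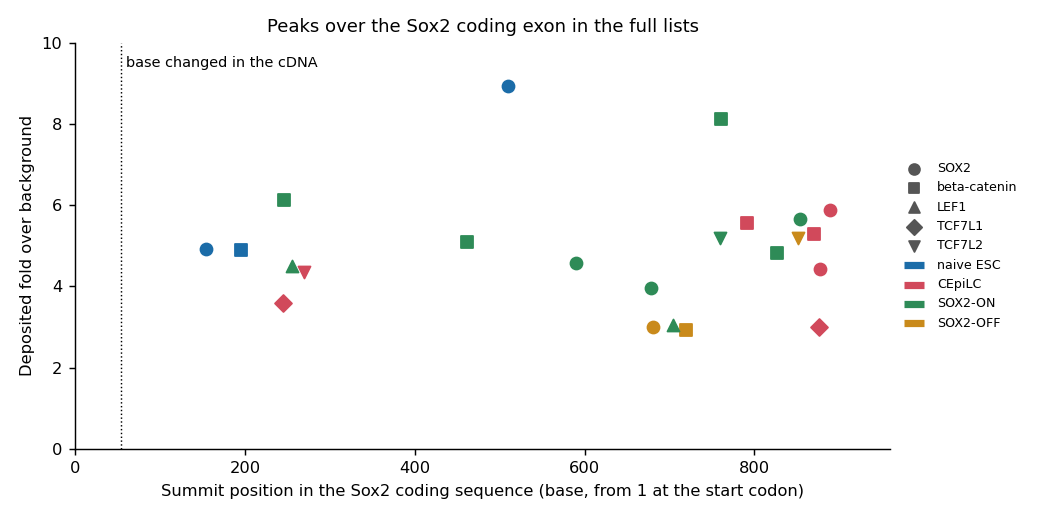
Peaks of the full lists with their summit in the Sox2 coding sequence, by position (x axis, base from 1 at the start codon) and deposited fold (y axis). Symbols are targets and colours are conditions, and the dotted line marks the base changed in the cDNA. The 23 peaks have folds from 2.93 to 8.94, and WT and SOX2-TetON libraries are mixed along the sequence.

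Other genes were compared with Sox2 by their peaks within 150 kb. Over the 20 group means of peaks per 10000, the protein-coding genes with the pattern most like that of Sox2, among 19300 compared, were Dleu7 (Pearson r = 0.939), Wsb1 (r = 0.936), Morf4l1 (r = 0.932), Etv5 (r = 0.932) and Odf1 (r = 0.926). The 20 points share libraries and the different list lengths of the 5 targets, so these values describe likeness only. Among 12 core pluripotency genes (such as Pou5f1, Nanog and Esrrb), 0 passed the test of high against low SOX2 for any target, and the median difference for β-catenin was 2.43 peaks per 10000 against 0 over all genes tested, with 5 higher and 0 lower at an unadjusted p under 0.05, which 19.2% of all genes tested had. At that p the same list had 1 higher and 1 lower with the SOX2 antibody, 1 higher and 3 lower with LEF1, 3 higher and 0 lower with TCF7L1 and 0 either way with TCF7L2. Among 12 genes of the caudal epiblast and primitive streak (such as T, Cdx2 and Wnt3a), 0 passed either, and the median for β-catenin was -3.16, with 1 higher and 6 lower at that p, against the same 19.2%. The counts were 0 higher and 3 lower with the SOX2 antibody, where 16.3% of all genes had such a p, 0 higher and 5 lower with LEF1 (6.98%), 1 higher and 2 lower with TCF7L1 (13.8%) and 0 higher and 3 lower with TCF7L2 (4.03%). Both lists were chosen with earlier results of these data known. Of the other SOXB1 genes, Sox1 had 4, 4 and 6 SOX2 peaks in naive ESCs and 19, 13 and 13 in CEpiLCs, and its difference of -1.83 per 10000 did not pass (adjusted p = 0.546, exact permutation). Sox3 had 1, 3 and 2 in naive ESCs and 1, 0 and 0 in CEpiLCs, with a difference of 1 per 10000 (adjusted p = 0.17, exact permutation).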

How the data were processed

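The deposited files are narrow peak lists, 1 for each of the 60 immunoprecipitated libraries, and the 4 input libraries were not used here. The authors sequenced single-end 76 bp reads, processed them with nf-core/chipseq on mm10 and called peaks with MACS2 in each library separately. The lists deposited by the authors give each peak a fold over local background (a ratio) and −log10 p and −log10 q values. They hold no read counts, so the depth of the libraries is unknown and no interval for counting error is given. Peaks were ranked by −log10 p, then by fold. Equal-length lists were capped at 20000 peaks, summits were joined within 500 bp, and features with a peak in at least 3 of 12 libraries of a target were tested. Permutations were run in Python 3.11.15 with numpy 2.4.6 and pandas 2.3.3 and were tested on simulated data. Sequences were read with pysam 0.24.0. Clusters were described singly when a condition had an equal-length peak in 3 of 3 libraries, or over the coding exon. The genes most like Sox2 were the 5 with the highest r among genes with at least 20 peaks. The rule, the lists and the tests were chosen with earlier results of these data known.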

Additional observations from a re-analysis of the deposited data

How the results depend on the processing

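The test of high against low SOX2 was not passed by the Sox2 window for any target under any alternative run, but its direction turned in several. With all deposited peaks in place of equal-length lists the difference per 10000 peaks was -1.32 with the SOX2 antibody, -1.35 with β-catenin and -0.357 with LEF1, with −log10 q of at least 5 it was 0.626 for TCF7L2, and within 50 kb it was -0.833 for SOX2. Without a change of direction it fell to 0.113 for TCF7L1 with all deposited peaks and to 0.487 for β-catenin and 2.63 for LEF1 within 50 kb, where TCF7L2 gave -1.61, and it rose for SOX2 to 5 with 2000 peaks per library and to 1.95 with −log10 q of at least 5. Leaving out a replicate gave SOX2 differences of 0 to 1, β-catenin differences of 2.29 to 6.57, LEF1 differences of 0.454 to 3.94, TCF7L1 differences of 2.88 to 7.68 and TCF7L2 differences of -2.7 to 0, the lowest for β-catenin being without replicate 2 and those for LEF1 and TCF7L1 without replicate 1. Counts of clusters in 3 of 3 against 0 of 3 libraries moved more. For CEpiLCs against naive ESCs, all deposited peaks gave 2 for β-catenin, 5 for TCF7L1 and 1 for TCF7L2, 2000 peaks per library gave 2 for SOX2 and 2 for β-catenin, −log10 q of at least 5 gave 2 for SOX2, joining summits within 1000 bp gave 1 for LEF1, and absence judged in full lists gave 0 for β-catenin and 1 for TCF7L1. For SOX2-ON against SOX2-OFF, all deposited peaks gave 4 for SOX2 and 3 for LEF1, 2000 peaks gave 0 for SOX2 and 0 for β-catenin, −log10 q of at least 5 gave 0 for β-catenin, and absence in full lists gave 0 for both. Leaving out a replicate, where 2 of 2 against 0 of 2 is easier to meet, gave for CEpiLCs against naive ESCs 6 to 7 SOX2 clusters, 1 to 4 of β-catenin, 0 to 1 of LEF1, 2 to 10 of TCF7L1 and 0 to 1 of TCF7L2, and for SOX2-ON against SOX2-OFF 1 to 3 for SOX2, 1 to 3 for β-catenin and 0 to 1 for TCF7L1. It leaves 36 assignments and a smallest exact p of 0.0556, so no count of passing clusters was made.

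For the coding exon, the log2 difference between the lines was -0.89 for SOX2 with −log10 q of at least 5, -0.19 for SOX2 in differentiated cells only, and -0.40 to 0.88 for SOX2 and -1.20 to 0.54 for β-catenin without a replicate. As a difference in standing in the list, from 0 to 1, in place of log2 fold, β-catenin gave 0.08. Standings of single clusters turned direction as follows, none having passed. All deposited peaks gave 0.0777 for SOX2 at 1.6 kb upstream, -0.0492 at +106.3 kb and -0.124 at +107.6 kb, and 0.134 for β-catenin at +14.8 kb. With 2000 peaks they were -0.0864 for SOX2 at +3.6 kb, 0.161 at +111.0 kb and 0.089 for β-catenin at +14.8 kb. With −log10 q of at least 5 they were 0.106 for SOX2 at 1.6 kb upstream, 0.0397 at +14.8 kb, 0.00807 at +111.0 kb and 0.0653 for β-catenin at +14.8 kb. At +109.9 kb SOX2 gave -0.0846 with summits joined within 1000 bp and between -0.0808 (without replicate 2) and 0.252 with a replicate left out. The cause of these changes was not tested.

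The replicate numbers were taken not to pair the samples, since 11 of 30 pairs of same-numbered libraries had correlated deviations over 0.1 (range -0.067 to 0.376), and all pairs did so only among the SOX2-TetON libraries of β-catenin, TCF7L1 and TCF7L2. With the number as a replicate block, 64 assignments and a smallest p of 0.0312 in the exact permutation are left, and 0 clusters passed for any target. After adjustment over all clusters a pass was hardly possible from that p. The SOX2 window difference of 0.417 is the same with the block by construction. Whether pairing matters for the Sox2 window therefore cannot be decided by this run. The number of reads behind a peak is unknown here, and the lengths of the lists limit what an absent peak can mean.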
